A study of Mus musculus with 2 samples.

Results

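Sparcl1, Rgcc, Plk2, BC028528 and Esm1 are 5 genes, of 31055 features counted, that were picked because their levels went down where those of Nr2f2 went up in single tumor blood endothelial cells (BECs). Values of these same cells made that choice, so every contrast between cells with high and low Nr2f2 is given here as a description. Nr2f2 encodes the nuclear receptor COUP-TFII, which holds the identity of veins and lymphatic vessels and keeps arterial programs down. Venules are the vessels where leukocytes leave the blood, whereas capillaries exchange solutes and, in growing tumors, send out tip cells that lead new sprouts toward vascular endothelial growth factor (VEGF).

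BECs were sorted from orthotopic tumors of 2 mouse models, and each model gave 1 droplet-based single-cell library. KPC cells are pancreatic cancer cells and PyMT cells are mammary cancer cells, and 100000 of either were implanted in wild-type female C57BL6 mice aged 6 weeks. Tumors were taken 10 days later, digested with more collagenase for KPC than for PyMT, and depleted of cells carrying CD45, EpCAM, Ter119, podoplanin or annexin V before the sort. How many mice went into a library is not given in the sources used here, and tumor model, organ, digestion and library cannot be told apart.

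The KPC library held 44441942 unique molecular identifiers (UMIs, 1 per captured transcript) in 10236 barcodes, of which 9591 were kept, and the PyMT library held 55547926 UMIs in 12464 barcodes, of which 11744 were kept. In all, 151 kept barcodes occurred in both libraries, which was 1.57% of KPC and 1.29% of PyMT barcodes. Because cells of 1 library are not replicates, no test was run, and intervals are exact 95% intervals for counting error only. A level is the UMIs of a gene summed over the cells of a class per 1000000 UMIs of that class (CPM). The 5 members and the class genes were found in both libraries.

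Cells were placed in 9 classes by summed UMIs of marker pairs, in a fixed order. Lymphatic cells were set by Mmrn1 and Prox1, pericytes by Notch3 and Higd1b, venule cells by Ackr1 and Selp, and artery cells by Gja5 and Sema3g. Tumor and fibroblast classes rested on keratins and type I collagen. Apln with Angpt2 was meant to mark tip cells, and Car4 with Cd300lg to mark capillary cells. Checked against 5 markers that the rule did not use, the artery class had the highest level of 5 in each library, and the venule class of 4 in KPC and 3 in PyMT. The Car4/Cd300lg class had the highest level of 5 of 5 capillary markers in KPC but of 0 of 5 in PyMT, where Car4 stood at 976 CPM and Cd300lg at 105 CPM. The Apln/Angpt2 class was highest for 3 of 5 tip cell markers in KPC and 1 of 5 in PyMT. These classes are therefore called by their genes, and 4089 KPC and 5603 PyMT cells belonged to no class. The venule class held 640 KPC and 360 PyMT cells, and 22.2% and 52.5% of these also met another class rule. Car4 stood at 675 CPM in the PyMT venule class and at 17.1 CPM in that of KPC.

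The members do different jobs. Sparcl1 and Esm1 encode secreted proteins of the vessel wall: SPARC-like 1 (hevin) is a matricellular protein, and endocan is a proteoglycan that endothelial cells make in response to VEGF. Rgcc and Plk2 act inside the cell: RGCC binds a cyclin-dependent kinase, and PLK2 is a polo-like kinase induced by serum and by p53. BC028528 encodes a small protein whose role is not established.

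On GRCm38, Sparcl1 lies on chromosome 5 (104079111 to 104113733, reverse strand) and Rgcc on chromosome 14 (79288756 to 79301645, reverse strand). Plk2 and Esm1 lie on the forward strand of chromosome 13, from 110395046 to 110400844 and from 113209659 to 113218098. BC028528 lies on chromosome 3 (95883954 to 95892005, reverse strand). All 5 are annotated as protein-coding. Sparcl1 overlaps Gm26703, BC028528 overlaps C920021L13Rik and Esm1 overlaps Gzmk, each on the other strand, and the sources used here do not say whether counting used the strand, so reads of these 3 members could in part come from the partner. Plk2 and Rgcc overlap no counted gene.

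The bases just before the transcription start are shown for 4 members, to let their promoters be compared. Their RefSeq starts on GRCm38.p6 were in the sources used here, which held no entry for Sparcl1. Capitals mark matches, on either strand, to any of 7 motifs: the nuclear receptor motif AGGTCA, the ETS core CCGGAA, the hypoxia response core ACGTG, the RBPJ core GTGGGAA, the GC box GGGCGG, the TATA box TATAAA and the cyclic AMP response element TGACGTCA. The motifs were chosen with the sequences known.
Rgcc, chr14:79301646-79301885, reverse strand: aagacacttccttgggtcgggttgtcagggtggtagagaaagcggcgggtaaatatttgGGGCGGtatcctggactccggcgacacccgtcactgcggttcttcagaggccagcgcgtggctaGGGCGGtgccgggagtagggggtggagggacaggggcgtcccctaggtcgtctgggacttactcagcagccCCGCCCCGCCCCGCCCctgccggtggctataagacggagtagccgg
Plk2, chr13:110394794-110395043, forward strand: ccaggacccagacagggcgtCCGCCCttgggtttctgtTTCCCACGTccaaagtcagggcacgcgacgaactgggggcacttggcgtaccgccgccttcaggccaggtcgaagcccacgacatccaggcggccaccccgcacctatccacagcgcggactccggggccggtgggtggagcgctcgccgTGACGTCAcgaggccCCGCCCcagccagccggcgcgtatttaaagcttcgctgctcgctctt
BC028528, chr3:95892063-95892312, reverse strand: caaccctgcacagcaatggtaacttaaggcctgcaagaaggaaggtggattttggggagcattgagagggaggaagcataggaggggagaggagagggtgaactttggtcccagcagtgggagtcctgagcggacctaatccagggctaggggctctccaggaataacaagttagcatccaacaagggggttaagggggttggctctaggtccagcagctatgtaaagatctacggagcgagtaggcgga
Esm1, chr13:113209409-113209658, forward strand: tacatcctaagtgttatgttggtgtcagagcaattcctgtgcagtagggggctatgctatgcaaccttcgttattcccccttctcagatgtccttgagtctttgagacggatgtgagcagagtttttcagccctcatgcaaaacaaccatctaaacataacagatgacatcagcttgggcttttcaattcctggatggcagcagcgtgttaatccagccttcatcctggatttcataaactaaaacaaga

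The 4 members shown did not share a kind of promoter window. Rgcc and Plk2 had GC-rich windows with 20 and 28 CpG dinucleotides, whereas BC028528 had 4 and Esm1 had 3, against a median of 6 over all 32851 promoter windows. GC boxes, found in 32.7% of all windows, numbered 5 in Rgcc and 2 in Plk2, and neighboring ones in Rgcc share a base. Plk2 also held the cyclic AMP response element 62 bases before its start, a motif of 1.55% of all windows, and an RBPJ core (5.42% of all windows) that overlaps a hypoxia response core (16.6%). The nuclear receptor motif was in none of the 4, and in 14.0% of all windows. The windows of BC028528 and Esm1 held none of the 7 motifs. BC028528 has 2 listed starts, and not all are shown. A match or its absence in these windows describes letters only. Gzmk also spans the Esm1 window.

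Nr2f2 itself stood at 143 CPM in the KPC venule class and 38.0 CPM in the KPC Car4/Cd300lg class, and at 120 and 41.1 CPM in PyMT. It was higher still in the lymphatic class, at 236 CPM in KPC and 180 CPM in PyMT. Its lowest endothelial level was in the artery class, at 21.6 CPM in KPC (7 UMIs, 8.70 to 44.6) and 8.20 CPM in PyMT (4 UMIs, 2.23 to 21.0). Over single cells of the endothelial classes, Pearson's r of each member with Nr2f2 was small. In KPC it ran from -0.178 for Rgcc (rank 4 from the lowest of 6728 genes) to -0.078 for BC028528 (rank 52). In PyMT it ran from -0.173 for Sparcl1 (rank 2 of 7021) to -0.086 for Esm1 (rank 35). The members were not the lowest genes in either library: Igfbp3, Gpihbp1 and Ly6c1 had lower r than any member in KPC, and Gpihbp1 in PyMT, while Sparcl1 was followed directly by Sparc in PyMT.

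In the venule class, 5 of 5 members in KPC and 4 of 5 in PyMT stood at least 2-fold below their level in the Car4/Cd300lg class. Over all genes at 10 CPM or more in either class, 5.21% of 8288 genes in KPC and 1.43% of 7879 genes in PyMT did so, but the choice of the members used this contrast and nothing is read from their count. The median log2 ratio of all genes was -0.05 in KPC and 0.03 in PyMT. What follows takes each member in turn, since they part ways outside this contrast, as the plot of levels per class shows.

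**Figure D1:**
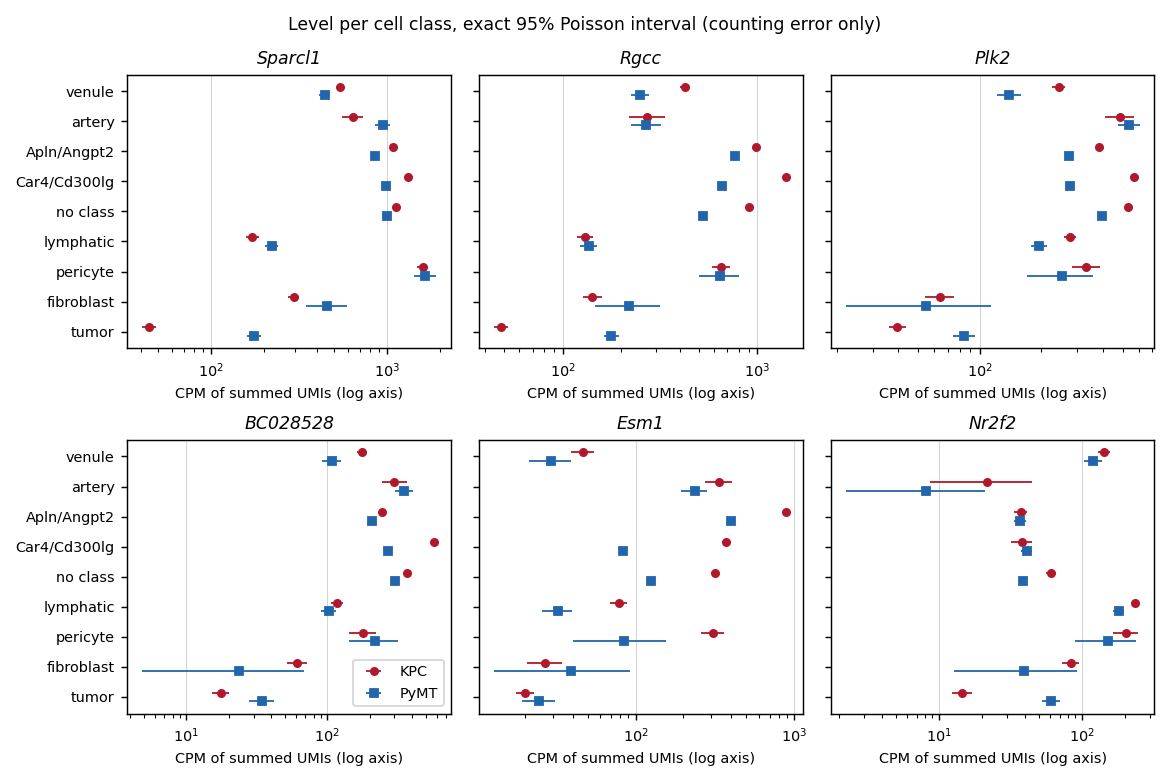
CPM of summed UMIs (x axis, log scale) of the 5 members and Nr2f2 in each of the 9 cell classes (y axis), KPC as red circles and PyMT as blue squares, bars being exact 95% Poisson intervals. Sparcl1 peaks in the pericyte class, Esm1 in the Apln/Angpt2 class at 894 CPM in KPC and 399 CPM in PyMT, and Rgcc is low in both the venule and the artery class.

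Sparcl1, the matricellular gene, was lowest among endothelial classes in the lymphatic class, at 171 CPM in KPC and 220 CPM in PyMT, and next lowest in the venule class. It stood at 541 CPM in the KPC venule class (514 to 568) and 1305 CPM in the KPC Car4/Cd300lg class (1268 to 1343), a log2 ratio of -1.27 (-1.35 to -1.19). In PyMT the levels were 440 CPM (407 to 475) and 986 CPM (968 to 1003), a log2 ratio of -1.16 (-1.28 to -1.05). The Apln/Angpt2 class lay near the Car4/Cd300lg class, at 1075 CPM in KPC and 849 CPM in PyMT.

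Yet the highest level of Sparcl1 was in pericytes, the mural cells that wrap capillaries, where Nr2f2 was also high. It stood at 1585 CPM in the 119 KPC cells of that class (1476 to 1701) with Nr2f2 at 204 CPM, and at 1647 CPM in the 27 PyMT cells (1425 to 1894) with Nr2f2 at 151 CPM. These classes were not free of endothelial RNA: the sum of 5 pan-endothelial markers was 2237 CPM in KPC and 2849 CPM in PyMT, and 24.4% and 59.3% of the cells met another class rule. Without those cells Sparcl1 was at 1709 CPM in KPC (90 cells) and 2296 CPM in PyMT (11 cells, 94 UMIs), but the pan-endothelial sum was still 1873 and 2712 CPM. The highest Sparcl1 level of the blood vessel classes was 1305 CPM in KPC (Car4/Cd300lg) and 1001 CPM in PyMT (cells of no class). The part of endothelial RNA in the Sparcl1 level of the pericyte class was not tested.

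In the artery class the place of Sparcl1 differed between the 2 libraries. The artery class stood at 637 CPM in KPC (553 to 730), which overlaps the venule class, but at 939 CPM in PyMT (855 to 1029), which overlaps the Car4/Cd300lg class. The log2 ratio of PyMT over KPC in the artery class was 0.56 (0.32 to 0.80), whereas in the venule class it was -0.30 (-0.43 to -0.17). The artery class rests on 105 KPC and 126 PyMT cells. Of the SPARC family, 2 of 7 other genes passed 10 CPM and neither differed 2-fold between the venule and Car4/Cd300lg classes. Sparc, the collagen-binding founder of the family, had log2 ratios of -0.40 in KPC and -0.49 in PyMT, and Fstl1 had 0.44 and 0.71.

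Esm1, the endocan gene, had the steepest gradient of the 5. It stood at 46.4 CPM in the KPC venule class (136 UMIs, 39.0 to 54.9), 372 CPM in the Car4/Cd300lg class (352 to 392) and 894 CPM in the Apln/Angpt2 class (874 to 914). In PyMT it stood at 29.3 CPM (44 UMIs, 21.3 to 39.4), 83.4 CPM (78.4 to 88.5) and 399 CPM (388 to 410). The venule level was thus the lowest of the 5 blood vessel classes in both libraries, and the Apln/Angpt2 level was the highest.

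The log2 ratio of the venule class over the Car4/Cd300lg class was -3.00 (-3.27 to -2.74) in KPC and -1.51 (-1.98 to -1.07) in PyMT. Without cells that met another class rule it was -3.94 in KPC and -3.10 in PyMT, at venule levels of 24 and 10 CPM. The ratio of the Apln/Angpt2 class over the Car4/Cd300lg class was 1.27 (1.18 to 1.35) in KPC and 2.26 (2.16 to 2.36) in PyMT. At least 2-fold higher there was 1 of the 5 members in each library, Esm1, beside 2.36% of all genes in KPC and 0.237% in PyMT. Without the 14.1% of KPC and 40.0% of PyMT cells of the Apln/Angpt2 class that met another rule, the Esm1 ratios were 1.29 and 2.70. Over all cells of these classes Nr2f2 was about equal, at 37.3 and 38.0 CPM in KPC and at 37.0 and 41.1 CPM in PyMT. Without cells that met another rule, the Nr2f2 ratio was 0.05 (-0.25 to 0.36) in KPC but -0.39 (-0.62 to -0.16) in PyMT. Esm1 differed at least 2-fold between these classes in both libraries, and the part of Nr2f2 in this was not tested.

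In the Car4/Cd300lg class, few cells carried most of the Esm1 UMIs. When each cell was thinned to 2000 UMIs, leaving out shallower cells, 30.0% of KPC cells (26.3 to 33.8) and 12.6% of PyMT cells (11.3 to 14.0) in the Car4/Cd300lg class had an Esm1 UMI. Thinning left out 700 of 1297 KPC and 230 of 2597 PyMT cells of that class, and the unthinned shares were 33.8% and 19.6%. The tenth of cells with the most UMIs of the gene held 68.7% of all its UMIs in KPC and 86.0% in PyMT, against 30.4% and 28.9% for Sparcl1. Such a share is larger where the mean is low, and Esm1 had means of 0.81 and 0.19 UMIs per thinned cell against 2.81 and 2.03 for Sparcl1. The variance over the mean was 4.91 for Esm1 in KPC and 2.00 in PyMT. It was 3.11 and 1.97 for Rgcc, and 2.38 and 1.61 for Sparcl1, so Esm1 and Rgcc were alike by this measure in PyMT.

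**Figure D2:**
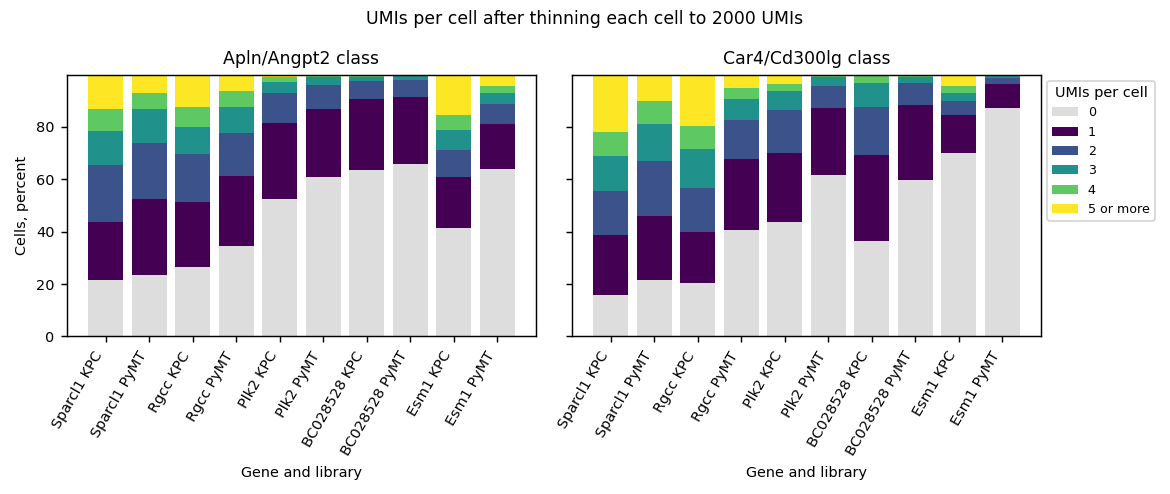
Stacked shares of cells (y axis, percent) with 0 to 5 or more UMIs of each member in each library (x axis), after thinning to 2000 UMIs per cell, in the Apln/Angpt2 class and the Car4/Cd300lg class. Most cells lack an Esm1 UMI except in the KPC Apln/Angpt2 class, where 15.4% of cells hold 5 or more, beside 4.19% in the KPC Car4/Cd300lg class.

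The tumor class, set by keratin genes, is put beside these shares. Of 5 tumor markers that the rule did not use, 5 were highest there in KPC and 4 in PyMT. The PyMT levels were low: Epcam stood at 19.7 CPM and Krt19 at 1.02 CPM, against 170 and 2789 CPM in KPC. The sum of 5 pan-endothelial markers was 186 CPM in KPC and 424 CPM in PyMT, against 3129 and 3042 CPM in the venule class. Member UMIs in the tumor class could come from free RNA, from mixed barcodes or from its own cells, which was not tested. The tumor class had an Esm1 UMI in 2.66% of thinned KPC cells (1.66 to 4.04) and 3.71% of thinned PyMT cells (2.04 to 6.15). Without cells that met another class rule, its Esm1 level was 11.3 CPM in place of 20.0 CPM in KPC. The class had a median of 12688 UMIs in KPC and 6939 in PyMT before thinning, against 3837 and 3486 in the venule class. Esm1 in the PyMT venule class, at 2.46% of thinned cells (0.993 to 4.99), overlapped the PyMT tumor class. In the KPC venule class the Esm1 share was 5.82% (3.99 to 8.15), whose interval just meets that of the KPC tumor class. By level, Esm1 stood at 46.4 CPM (39.0 to 54.9) in the KPC venule class and 20.0 CPM (17.5 to 22.9) in the KPC tumor class. In PyMT these levels were 29.3 CPM (21.3 to 39.4) and 24.4 CPM (19.1 to 30.8), whose intervals overlap. Whether venule Esm1 is background was not tested. Unthinned, the Esm1 shares were 13.5% and 10.8% in the tumor class and 9.53% and 6.39% in the venule class. For Sparcl1 and Rgcc the tumor class share was 6.35% and 6.60% in KPC but 19.6% and 25.2% in PyMT, while the PyMT venule class had 51.6% and 29.1%. The Rgcc share in PyMT venule cells, with an interval of 23.9 to 34.8, thus overlapped that of the tumor class, with one of 20.9 to 29.9. By level, Rgcc in PyMT stood at 249 CPM (225 to 276) in the venule class and 178 CPM (163 to 193) in the tumor class.

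Of the list of VEGF-responsive and tip cell genes, 12 were measured in KPC and 13 in PyMT. In the venule class 6 and 4 of these stood at least 2-fold below the Car4/Cd300lg class, beside 5.21% and 1.43% of all genes. At least 2-fold higher were 1 and 0, beside 2.99% and 3.95%. Kcne3, a potassium channel subunit of tip cells, had log2 ratios of -1.63 and -2.57, and Dll4, the Notch ligand of tip cells, had -1.46 and -1.11. Pgf, also a tip cell marker, went the other way in KPC at 1.59, and was at -0.23 (-0.97 to 0.44) in PyMT. Dll4 was higher in the artery class than in the Apln/Angpt2 class, at 266 against 127 CPM in KPC and 256 against 119 CPM in PyMT. Kcne3 was so in KPC (145 against 113 CPM) but not in PyMT (18.5 against 118 CPM). Kdr, the main VEGF receptor, had -1.44 in KPC and -0.01 in PyMT. Other endothelial proteoglycans were mixed: 4 of 7 in KPC and 3 of 6 in PyMT were at least 2-fold higher in the venule class, beside 2.99% and 3.95% of all genes, and 0 were 2-fold lower. Bgn (biglycan) had a log2 ratio of 3.14 in KPC and 1.84 in PyMT, and Vcan (versican) had 4.65 and 4.90 from a low level of 14.0 and 40.0 CPM in the venule class. Dcn, among the higher genes in KPC, also served as a fibroblast marker. Below 0 with intervals that excluded it were Hspg2 (perlecan), of the basement membrane, at -0.57 and -0.24, and the syndecan gene Sdc3 at -0.90 and -0.80, as well as Srgn at -0.32 in KPC alone. Median log2 ratios of the proteoglycan list were 1.52 and 0.86.

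Rgcc, the cell cycle regulator, was low at both ends of the vessel tree. It stood at 425 CPM in the KPC venule class (402 to 449) and 272 CPM in the artery class (218 to 335), against 1394 CPM in the Car4/Cd300lg class (1356 to 1433) and 982 CPM in the Apln/Angpt2 class. In PyMT it stood at 249 CPM in the venule class (225 to 276) and 269 CPM in the artery class (225 to 319), whose intervals overlap, against 655 CPM (641 to 669) in the Car4/Cd300lg class and 766 CPM in the Apln/Angpt2 class. The artery class is where Nr2f2 was lowest, so the level of Rgcc was low with Nr2f2 both high and low.

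The log2 ratio over the Car4/Cd300lg class was -1.71 (-1.81 to -1.62) for venule and -2.36 (-2.68 to -2.05) for artery cells in KPC, and -1.39 (-1.55 to -1.24) and -1.29 (-1.55 to -1.04) in PyMT. Rgcc was the member with the lowest artery ratio in both libraries. Over the 10 levels of the 5 blood vessel classes in 2 libraries, which share their libraries, r of log2 levels with Nr2f2 was 0.03 for Rgcc. For the other 4 it was -0.53 (Sparcl1), -0.70 (Plk2), -0.61 (BC028528) and -0.62 (Esm1). Over all 18 levels it was -0.28 for Esm1 and between -0.08 and 0 for the others. The choice of the members used the blood vessel cells, so nothing is read from the contrast of these values, which the plot against Nr2f2 shows.

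**Figure D3:**
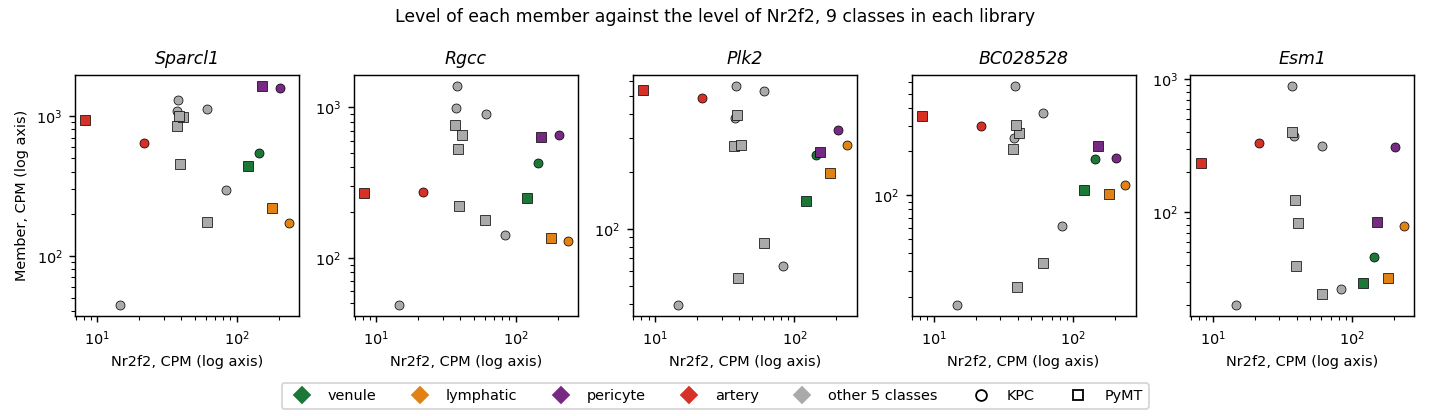
Level of each member (y axis, CPM, log scale) against that of Nr2f2 (x axis, CPM, log scale) in the 9 classes of KPC (circles) and PyMT (squares). Green venule points lie low at high Nr2f2, purple pericyte points lie high in the Sparcl1 panel at 1585 and 1647 CPM, and red artery points lie high for Plk2 but low for Rgcc.

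Cycling cells, with at least 3 UMIs of Mki67 and Top2a together, had lower levels of all 5 members in the Car4/Cd300lg class of both libraries. In KPC the log2 ratio ran from -1.28 for Esm1 to -0.42 for Sparcl1, and in PyMT the ratios were alike, from -0.38 to -0.32. For Rgcc the levels were 701 CPM in 63 cycling and 1512 CPM in 1234 other KPC cells, a log2 ratio of -1.11 (-1.27 to -0.96), and the ratio in PyMT was -0.37 (-0.46 to -0.28). In the artery class the Rgcc ratio was above 0, at 1.81 (1.13 to 2.46) in KPC and 1.32 (0.55 to 2.01) in PyMT, though this rests on 7 and 5 cycling cells with 31 and 20 Rgcc UMIs. Sparcl1 was also above 0 in KPC, at 0.35 (0.18 to 0.50) in the venule class and 0.81 (0.29 to 1.30) in the artery class. In PyMT these Sparcl1 ratios were -0.06 (-0.36 to 0.22) and -0.91 (-1.70 to -0.21). Cycling cells were deeper, with a median of 6896 against 1818 UMIs in the KPC Car4/Cd300lg class, and the part of depth was not tested.

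Plk2, the polo-like kinase gene, and BC028528 followed each other more closely than any other members. Pearson's r of their log2 levels was 0.96 over 18 levels and 0.93 over the 10 blood vessel levels, although their promoter windows differ as shown above. Plk2 stood at 244 CPM in the KPC venule class (226 to 262), 485 CPM in the artery class (412 to 567), 384 CPM in the Apln/Angpt2 class and 568 CPM in the Car4/Cd300lg class (543 to 593). In PyMT these levels were 139 CPM (121 to 160), 537 CPM (474 to 606), 274 CPM and 277 CPM (268 to 286). BC028528 had 176, 300, 246 and 568 CPM in KPC and 108, 351, 208 and 269 CPM in PyMT, in the same order of classes.

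Both genes were higher in the artery class than in the venule class. The log2 ratio of artery over venule cells was 0.99 (0.73 to 1.24) in KPC and 1.95 (1.68 to 2.22) in PyMT for Plk2, and 0.77 (0.44 to 1.08) and 1.70 (1.38 to 2.02) for BC028528. Esm1 had 2.85 and 3.01. At least 2-fold were 1 of 5 members in KPC, beside 11.4% of all genes, and 4 of 5 in PyMT, beside 8.73% of all genes. These classes differ in Nr2f2 and the choice of the members used their cells, so nothing is read from these counts. Rgcc had the lowest ratio of the 5 in each library, at -0.64 and 0.11.

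Against the Car4/Cd300lg class, the venule ratio was -1.22 (-1.34 to -1.10) in KPC and -0.99 (-1.20 to -0.79) in PyMT for Plk2, the mildest of the 5 in each library. For BC028528 it was -1.69 (-1.83 to -1.55) and -1.32 (-1.55 to -1.09). Without cells that met another class rule, the Plk2 ratio in PyMT was -0.68. In lymphatic cells, another class with high Nr2f2, Plk2 stood at 277 CPM in KPC (260 to 295), overlapping the venule class, and at 196 CPM in PyMT (179 to 213), above it. The log2 ratios of the lymphatic over the Car4/Cd300lg class were -1.04 (-1.15 to -0.93) and -0.50 (-0.64 to -0.37). Sparcl1 and Rgcc in lymphatic cells lay below their venule levels in both libraries, Rgcc at 130 and 136 CPM. Despite the depletion of podoplanin-positive cells, 802 KPC and 633 PyMT cells were in the lymphatic class, and 34.0% and 26.7% of them met another class rule.

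The other polo-like kinases were low: 3 of 4 passed 10 CPM, and of these Plk3 was 2-fold lower in the KPC venule class (log2 ratio -1.09) and none in PyMT. Of the targets of p53, a regulator of Plk2, Btg2 (-1.39) and Cdkn1a (-1.31) were 2-fold lower in the KPC venule class among 6 measured, whereas in PyMT 0 of 7 were lower and Zmat3 was higher (1.27). Immediate early genes, which respond within minutes to stimuli that include tissue digestion, were 2-fold lower for 4 of 12 in the KPC venule class with a list median of -0.79, and 2-fold higher for 1 of 12 in PyMT with a median of 0.52. Beside these counts, 5.21% of all genes in KPC and 1.43% in PyMT were 2-fold lower, and 2.99% and 3.95% were 2-fold higher. The venule ratio of Plk2 was below 0 in both libraries, and the part of p53 or of such stimuli in it was not tested.

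Further lists describe the same contrast. Of all genes, 5.21% in KPC and 1.43% in PyMT were 2-fold lower in the venule class, and 2.99% and 3.95% were 2-fold higher. Capillary genes other than the class markers were 2-fold lower in the venule class for 7 of 9 in KPC, Gpihbp1 the lowest at -3.46, and for 2 of 9 in PyMT, where Gpihbp1 was at -2.20 and Aqp1 at 1.65. Of the 6 genes that the study sets against Nr2f2, which were chosen on these samples, 5 in KPC and 2 in PyMT were 2-fold lower, with Hey1, a Notch target of arteries, at -3.12 and -2.25. All 6 had ratios below 0 in both libraries, with intervals that excluded it. The study showed these genes by their correlation with Nr2f2 over imputed values of PyMT cells, which is a different measure from a class ratio. Of the 6 set with Nr2f2, 5 in each library were 2-fold higher, among them the adhesion molecule gene Sele at 3.59 and 4.47. Selp, of the same list, defines the venule class.

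Within a class, cells with an Nr2f2 UMI were compared with cells without one. The members were picked for falling with Nr2f2 in these same cells, so the ratios are a description and nothing is read from their sign. In the venule class, the interval of the log2 ratio held 0 for all 5 members in both libraries, from -0.08 for Rgcc to 0.32 for Esm1 in KPC and from -0.26 for Plk2 and Esm1 to 0.27 for Rgcc in PyMT. In the Car4/Cd300lg class the ratio was below 0 for all 5 in both libraries. Esm1 had the lowest ratio there, at 141 against 422 CPM in KPC, a log2 ratio of -1.59 (-1.91 to -1.28), and at -0.46 (-0.71 to -0.22) in PyMT. Among cells of no class it was -1.81 (-2.01 to -1.61) in KPC and -1.04 (-1.27 to -0.83) in PyMT. In the Apln/Angpt2 class the Esm1 ratios were -0.67 and -0.55, while BC028528 in KPC was at 0.05 (-0.09 to 0.20). The difference between the classes in this ratio was not tested. Cells with an Nr2f2 UMI were deeper, and these ratios were not matched for depth. The median was 4186 against 1795 UMIs in the KPC Car4/Cd300lg class and 4098 against 3422 in the KPC venule class. After thinning to equal depth, 25 KPC venule cells had UMIs of both Rgcc and Nr2f2, against 46.1 expected from their separate shares. The ratio of found to expected cells was 0.542 (0.354 to 0.792). For the other members there, and for all 5 in the PyMT venule class, its interval included equality.

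**Figure D4:**
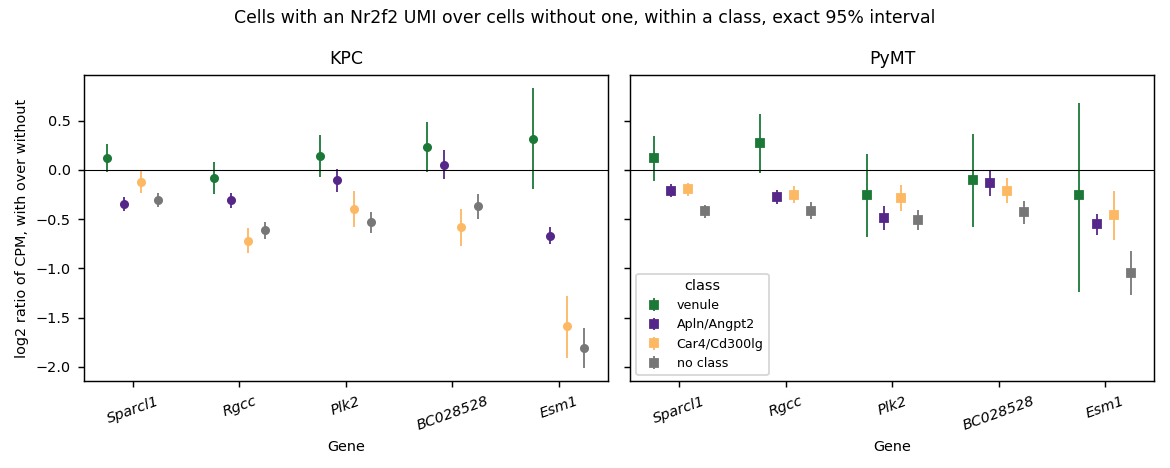
Log2 ratio of CPM (y axis) of cells with over cells without an Nr2f2 UMI for each member (x axis) in KPC and PyMT, colored by class, with exact 95% intervals. Green venule intervals hold 0 throughout. The Esm1 ratio falls to -1.59 in the Car4/Cd300lg class and -1.81 in cells of no class in KPC. Depth was not matched between cells with and without an Nr2f2 UMI.

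Cells with a UMI of all 5 members were fewer in the venule class than in the Car4/Cd300lg and Apln/Angpt2 classes. The choice of the members used these cells, so nothing is read from this. After thinning, 10.1% of KPC cells of the Car4/Cd300lg class and 8.73% of the Apln/Angpt2 class had them all, against 0.375% of the venule class (2 of 533 cells). In PyMT these shares were 1.86% and 3.61%, against 0 of 285 venule cells. Of the artery class, 1 of 67 KPC cells (1.49%) and 4.67% of PyMT cells had them all, while 16.4% and 7.48% had none. Cells with none of the 5 made up 22.9% of the KPC venule class and 1.34% of the KPC Car4/Cd300lg class, and 26.3% and 6.21% in PyMT. The median number of members detected was 1 in the venule class of both libraries and 3 in the Apln/Angpt2 class of both.

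Between the tumor models, a contrast that did not choose the genes, the members were lower in PyMT in most vessel classes. In the Car4/Cd300lg class 4 of 5 were at least 2-fold lower in PyMT, as were 9.96% of 8185 genes. Esm1 had a log2 ratio of PyMT over KPC of -2.16 (-2.27 to -2.04), Rgcc -1.09 (-1.14 to -1.04), BC028528 -1.08 (-1.16 to -0.997), Plk2 -1.03 (-1.11 to -0.95) and Sparcl1 -0.40 (-0.45 to -0.36). The median over all genes was -0.15. The 2-fold calls of Rgcc (-0.94) and BC028528 (-0.97) were lost with a stricter cell filter, and that of BC028528 (-0.96) also with thinning. These classes differed in more than the members: their marker check passed in KPC only, and the median depth was 1879 UMIs in KPC and 4254 in PyMT.

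All 12 immediate early genes were also lower in the PyMT Car4/Cd300lg class, Fos at 668 against 2803 CPM and Egr1 at 86.2 against 659 CPM. The median log2 ratio of all genes in this class was -0.15. The part of the immediate early genes in the difference of the members, and that of the digestion, was not tested.

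In the Apln/Angpt2 class 1 of 5 members was 2-fold lower in PyMT, Esm1 at -1.16 (-1.22 to -1.11), beside 3.14% of all genes. Among cells of no class it was again Esm1 alone, at -1.34 (-1.42 to -1.27), beside 7.53%. In the venule class 0 of 5 were 2-fold lower, beside 3.15%, yet all 5 ratios lay below 0, from -0.81 (-1.04 to -0.58) for Plk2 to -0.30 for Sparcl1. The artery class stood apart: the intervals of Rgcc, Plk2 and BC028528 held 0, Sparcl1 was higher in PyMT and Esm1 was at -0.50 (-0.89 to -0.11), with 0 of 5 members 2-fold lower beside 13.6% of all genes. Lymphatic cells had Esm1 at -1.28 (-1.65 to -0.93), from 78.3 to 32.2 CPM. Esm1 was thus the member with the lowest ratio in each of these classes but the venule class. With 1 library per model, no replicate check of any of these differences exists.

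**Figure D5:**
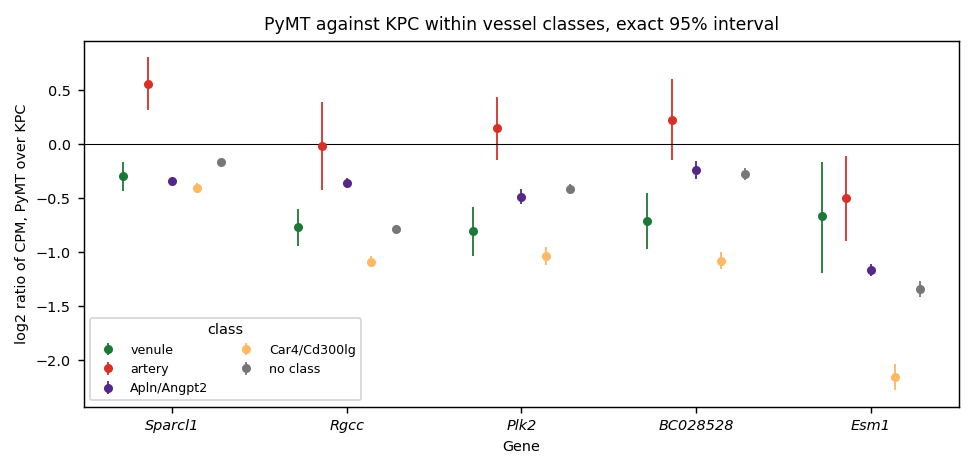
Log2 ratio of CPM, PyMT over KPC (y axis), of each member (x axis) in the 5 blood vessel classes, with exact 95% intervals. Orange Car4/Cd300lg points reach -2.16 for Esm1, and red artery points lie at or above 0 for Sparcl1, Plk2 and BC028528.

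Genes whose class levels most resembled those of each member were ranked among 9080 genes by r of log2(CPM + 10) over the 18 levels, which share libraries and class sizes. For Sparcl1 these were Nrp1, the VEGF and semaphorin coreceptor, at 0.93, the basement membrane collagens Col4a1 and Col4a2, Mcam and Rell1. Rgcc had Cdc42ep3, an effector of the GTPase Cdc42, at 0.95, then Nrp1, St8sia4, Rell1 and Fam167b. Nrp1 and Rell1 thus stood in both lists. Plk2 had Filip1 at 0.95, Ushbp1, Tanc1, Podxl, the sialomucin podocalyxin, and Tet3. BC028528 had Ushbp1 at 0.95, Rtl8a, Adgrl4, an adhesion receptor of endothelium, the kinase gene Fyn and Tmem88, and so shared Ushbp1 with Plk2. Esm1 had no gene as near, with Jmjd6 at 0.86 ahead of Map4k3, Nes (nestin), Cdk17 and Kctd12b.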

How the data were processed

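The deposited counts are UMI counts per gene and barcode, made by the authors with Cell Ranger (version 3.0 in the notes, 3.0.2 in the matrix headers) on mm10 and left unnormalized; the methods name kit v2 for the libraries but v3 for the sort. Barcodes needed 500 or more detected genes and a mitochondrial share of UMIs below 10%. Classes were assigned, in the order tumor, fibroblast, lymphatic, pericyte, venule, artery, Apln/Angpt2 and Car4/Cd300lg, from summed UMIs of their marker pairs at thresholds of 5, 10, 3, 2, 3, 2, 3 and 2. No doublet caller was run; cells meeting 2 class rules and the 8% with the most UMIs were left out as alternatives. Levels have exact Poisson, shares Clopper-Pearson and ratios exact conditional intervals at 95%. Calls are 2-fold differences among genes at 10 CPM. Named genes are the members, Nr2f2, 5 most similar genes per member and the highest and lowest of each list; further list genes were named for their role, and genes of lower r with Nr2f2 were named after their values were seen. The members and lists were chosen with earlier results of these data known. Scripts were tested on simulated data. Positions are GENCODE's, promoters RefSeq's, trimmed of annotated exon bases (10 in Rgcc). Python 3.11.15, numpy 2.4.6, scipy 1.17.1 and pandas 2.3.3 were used.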

Additional observations from a re-analysis of the deposited data

Results flagged for a closer look

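Some log2 ratios over the Car4/Cd300lg class had opposite signs in the libraries, with intervals that did not hold 0, and for none of them was the difference tested, since each model has 1 library. Rgcc in the Apln/Angpt2 class was at -0.51 in KPC and 0.23 in PyMT. Among cells of no class, Plk2 was at -0.09 and 0.52, BC028528 at -0.62 and 0.18, and Esm1 at -0.23 and 0.58. BC028528 in the artery class was at -0.92 in KPC and 0.38 in PyMT. The reference class of these ratios passed its marker check in KPC only.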

How the results depend on the processing

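All 40 alternative values of the venule over Car4/Cd300lg ratio kept their sign in KPC (-4.38 to -1.21), as did 40 in PyMT (-3.10 to -0.67) and 40 of PyMT over KPC in the Car4/Cd300lg class (-2.36 to -0.19); of 720 values of other ratios, 697 kept it. Leaving out the barcodes found in both libraries, an alternative chosen after seeing the data, moved none of the first 3 groups beyond counting error. The cause of the moves below was not tested. Venule ratios in KPC moved without cells meeting 2 rules (Sparcl1 -1.47, Rgcc -1.95, Esm1 -3.94), with doubled thresholds (-1.46, -2.10, -4.38), as a mean of per-cell CPM (-1.41, -2.34, -3.49, and BC028528 -1.99), without cycling cells (Sparcl1 -1.42, Rgcc -1.84), thinned (Sparcl1 -1.46), with 1000 genes and under 5% mitochondrial UMIs (Rgcc -1.53) and without the 8% of deepest cells (Rgcc -1.88). In PyMT they moved without cells meeting 2 rules (Rgcc -1.85, Plk2 -0.68, Esm1 -3.10), with doubled thresholds (Rgcc -1.84, Plk2 -0.67), without the deepest cells (Sparcl1 -1.30, Rgcc -1.65), thinned (Sparcl1 -1.31, Esm1 -2.26) and as a per-cell mean (Rgcc -1.87). PyMT over KPC moved with doubled thresholds (Sparcl1 -0.51, Rgcc -1.25, Plk2 -1.32, BC028528 -1.26, Esm1 -2.36), as a per-cell mean (Sparcl1 -0.19, Rgcc -1.31, BC028528 -1.20, Esm1 -2.31), thinned (Sparcl1 -0.53, Plk2 -1.16, BC028528 -0.96 and no longer 2-fold, Esm1 -2.29), with the stricter filter (Sparcl1 -0.48, Rgcc -0.94, BC028528 -0.97, the last 2 no longer 2-fold), without the deepest cells (Rgcc -1.16) and without cycling cells (Rgcc -1.15). No paired analysis was possible because each model has 1 library and no test was run.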

Other observations

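Members were found together in the same cell somewhat more often than the product of their separate shares would give, after thinning to 2000 UMIs per cell. Of 100 combinations of member pair, blood vessel class and library, the interval of the ratio of found to expected cells lay above 1 for 30 and below 1 for 0. All members were picked for falling with the same gene in these cells. Pairs of other genes were not counted, so nothing is read from this count. Sparcl1 and Rgcc shared 126 cells against 90.1 in the KPC venule class (ratio 1.40, 1.19 to 1.63) and 404 against 399 in the KPC Car4/Cd300lg class (1.01, 0.95 to 1.07). Plk2 and BC028528 shared 425 against 366 cells in the PyMT Car4/Cd300lg class (1.16, 1.06 to 1.26). These intervals cover counting error only, and mixed states or barcodes within a class were not tested.

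Genes whose class levels most resembled those of Nr2f2 itself over the 18 levels included Olfm1 at an r of 0.86 and 1500009L16Rik at 0.82.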
